A study of Homo sapiens with 4 samples.

Results

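The ATP-binding cassette (ABC) transporter family was examined in RNA from the BT-474 line, with and without stable expression of NRP-1. Members were all human genes with a symbol from ABCA to ABCG followed by a number, without pseudogenes and without TAP1 and TAP2. RefSeq holds 46 such genes, and 42 of them were listed in at least 1 library, among 18882 genes listed in all. ABCA6, ABCD2, ABCG8 and the readthrough gene ABCF2-H2BK1 were listed in none of the 4 libraries.

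BT-474 is an established human breast cancer cell line of luminal B-like type. The 2 control libraries came from cells labelled wild-type, and the 2 NRP-1 libraries came from cells that stably carry a plasmid expressing NRP-1 (Neuropilin-1, a glycoprotein coreceptor). Replicates are numbered as in the labels, 1 and 2 for the controls and 2 and 3 for NRP-1. All cells grew in the same medium, but only the NRP-1 cells were selected with Geneticin, and transfected clones were picked, so the effects of NRP-1, vector, selection and clone cannot be told apart in these libraries. The labels do not say whether the libraries of a group came from separate cultures, so p-values measure only the spread between these libraries.

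ABC proteins bind and hydrolyse ATP in paired nucleotide-binding domains and, in most members, use it to move a substrate through a membrane. Subfamily A and several members of G move cholesterol and phospholipids, and subfamily C and parts of B and G export drugs and conjugated metabolites. Subfamily D serves peroxisomes and lysosomes, while E and F lack membrane spans and act in translation. ABCB1 (P-glycoprotein), ABCC1 and ABCG2 (breast cancer resistance protein) are the pumps best known for the efflux of anthracyclines and other cytotoxics.

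The libraries held between 8243595 and 8448926 estimated reads each. NRP1 itself had 7 and 8 reads in the controls, against 103 and 62 reads with NRP-1 (log2 fold change 3.38, adjusted p = 0.044 by the quasi-likelihood test of edgeR, corrected after Benjamini and Hochberg). The biological coefficient of variation was 0.225 between the NRP-1 libraries and 0.064 between the control libraries. All 12 markers of luminal breast epithelium were present in every library and summed to between 5440 and 6690 FPKM (fragments scaled to transcript length and library size). Of 14 markers of other cell types, between 7 and 10 had reads in a library, and they summed to 58.7 and 56.5 FPKM in the controls, against 40.2 and 37.2 FPKM with NRP-1. COL1A1, a collagen gene, and CD68, a macrophage and lysosome marker, made up most of this sum. PTPRC lay between 0.73 and 1.38 FPKM, and CD3E, PDGFRB, KRT14 and HBB were listed in no library. CD68 had 320.0 and 281.4 reads in the controls, against 107.0 and 89.4 with NRP-1 (log2 fold change -1.67, adjusted p = 0.0423, edgeR). The part of these markers in the results below was not tested. In bulk RNA, fewer cells of a type and less RNA per cell cannot be told apart.

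The family spanned a wide range of RNA levels, and translation factors and drug and conjugate pumps were among its most abundant members. By FPKM, which is per length and allows levels of different genes to be compared, 15 members had a mean of at least 10 and 27 a mean of at least 1. The highest was ABCF1, a factor that promotes translation initiation, at 37.7 and 38.2 FPKM in the controls, against 42.5 and 50.2 FPKM with NRP-1. ABCC3, an exporter of conjugated bile salts and drugs, followed at 37.6 and 35.4 FPKM against 30.3 and 22.3 FPKM. ABCF3, ABCE1, ABCC5, ABCF2, ABCD3, ABCC11, ABCG1 and ABCB8 complete the 10 highest, which together made up 67.6% of the family's summed FPKM. The pumps best known for drug efflux lay far apart. ABCC1 had between 8.07 and 10.6 FPKM in the 4 libraries, while ABCB1 had at most 0.08 and ABCG2 at most 0.06.

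**Figure D1:**
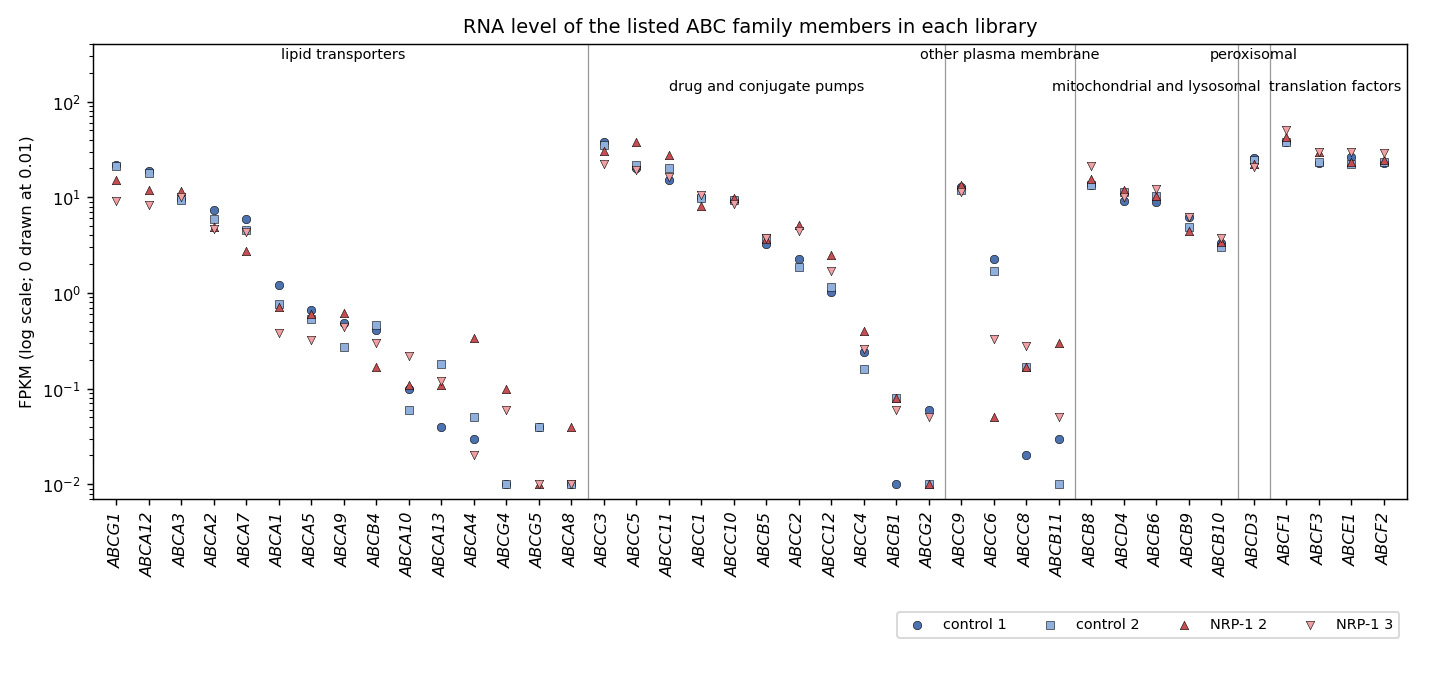
FPKM (log axis, values of 0 drawn at 0.01) of 40 listed members in each of the 4 libraries, grouped by role and ordered by mean level within a role; symbols mark the library. The 4 translation factors lie together above 20 FPKM, the lipid transporters and drug pumps each span about 3 orders of magnitude, and ABCC6 shows the widest gap between groups among members above 1 FPKM in control cells.

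The summed level of the family differed little between the groups, and the sums by role differed in direction. The sum was 366.9 and 365.6 FPKM in the controls, against 386.8 and 363.2 FPKM with NRP-1, so the control values lay between the NRP-1 values. This was 366.0 ± 0.891 (SD, n = 2) against 375.0 ± 16.7 (SD, n = 2). The FPKM of all genes summed to 468850 and 456667 in the controls, against 423177 and 438534 with NRP-1. As a share of that total the family held 0.0783% and 0.0801% against 0.0914% and 0.0828%, higher in both NRP-1 libraries. The 15 lipid transporters summed to 66.4 and 61.8 FPKM in the controls, against 49.1 and 38.4 FPKM with NRP-1, with no overlap of the groups. Most of this difference lay in ABCA12, with means of 18.4 and 10.1 FPKM, and ABCG1, with 21.6 and 12.1 FPKM, while ABCA3 had 9.48 and 10.8 FPKM. The share of the 15 in the family was 18.1% and 16.9% in the controls, against 12.7% and 10.6% with NRP-1. The 4 translation factors summed to 109.4 and 106.9 FPKM against 119.8 and 138.9 FPKM. The 11 drug and conjugate pumps summed to 99.3 and 103.5 FPKM against 125.4 and 87.2 FPKM, so that the NRP-1 libraries lay on both sides of the controls. In this design the smallest p of an exact permutation test (two-sided) is 0.33, so these sums were not tested.

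**Figure D2:**
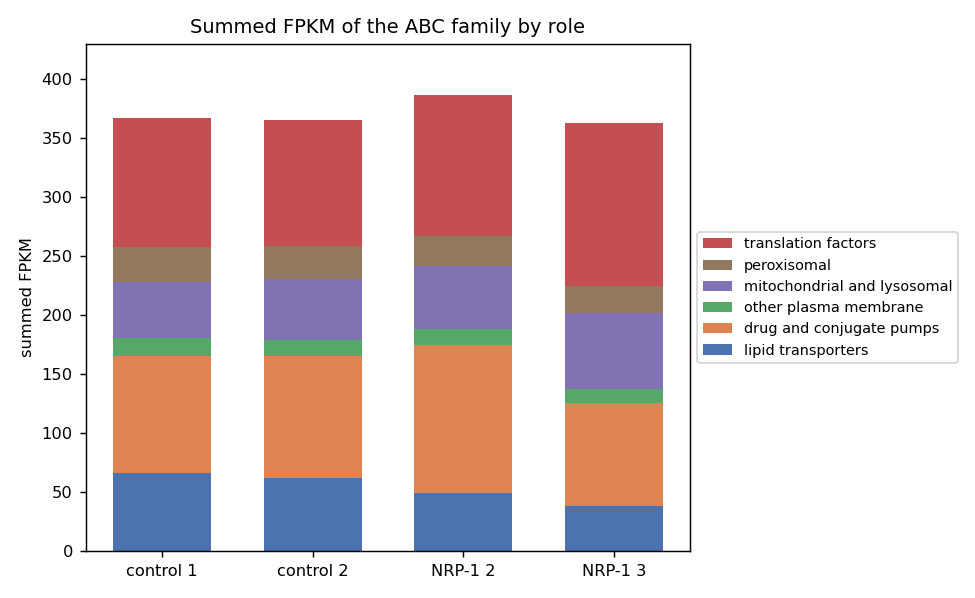
Summed FPKM of the family in each library (bars from 0), split by role. The total stays between 363.2 and 386.8 FPKM, the lowest block (lipid transporters) is smaller in both NRP-1 libraries, and the block of drug and conjugate pumps is largest in NRP-1 replicate 2 and smallest in NRP-1 replicate 3.

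Of the 42 listed members, 33 had enough reads to be tested, and 1 of them, ABCC6, changed at an adjusted p under 0.05. This is 3.03% of the tested members, beside 1.09% of all 14298 genes tested (0.678% called lower and 0.413% higher). Without adjustment, 8 of the 33 members had a p under 0.05, 5 lower and 3 higher, which is 24.2% beside 22.9% of all genes and thus close to the background. In CPM, the reads scaled to library size without regard to gene length, 18 members had groups that did not overlap, 8 higher and 10 lower with NRP-1, or 54.5% beside 56.2% of all genes. The median log2 fold change was 0.07 over the tested members and 0.02 over all genes, and the median of the absolute values was 0.33 against 0.27. Counted by size alone, 2 members (6.06%), ABCC6 and ABCC2, had a log2 fold change of 1 or more in either direction, beside 8.21% of all genes. DESeq2 called 4 members (12.1%), ABCC6, ABCC2, ABCA12 and ABCG1, beside 6.67% of all genes. The threshold in the study's methods is stricter (adjusted p of 0.001 or less with a 2-unit log2 change), and there edgeR and DESeq2 each called 0 members. As edgeR called 0 of all 14298 genes there, with 0.00856 as the lowest adjusted p of any gene, its count says nothing about the family. The DESeq2 calls over all genes were not counted at this threshold, so the DESeq2 count of members has no background.

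**Figure D3:**
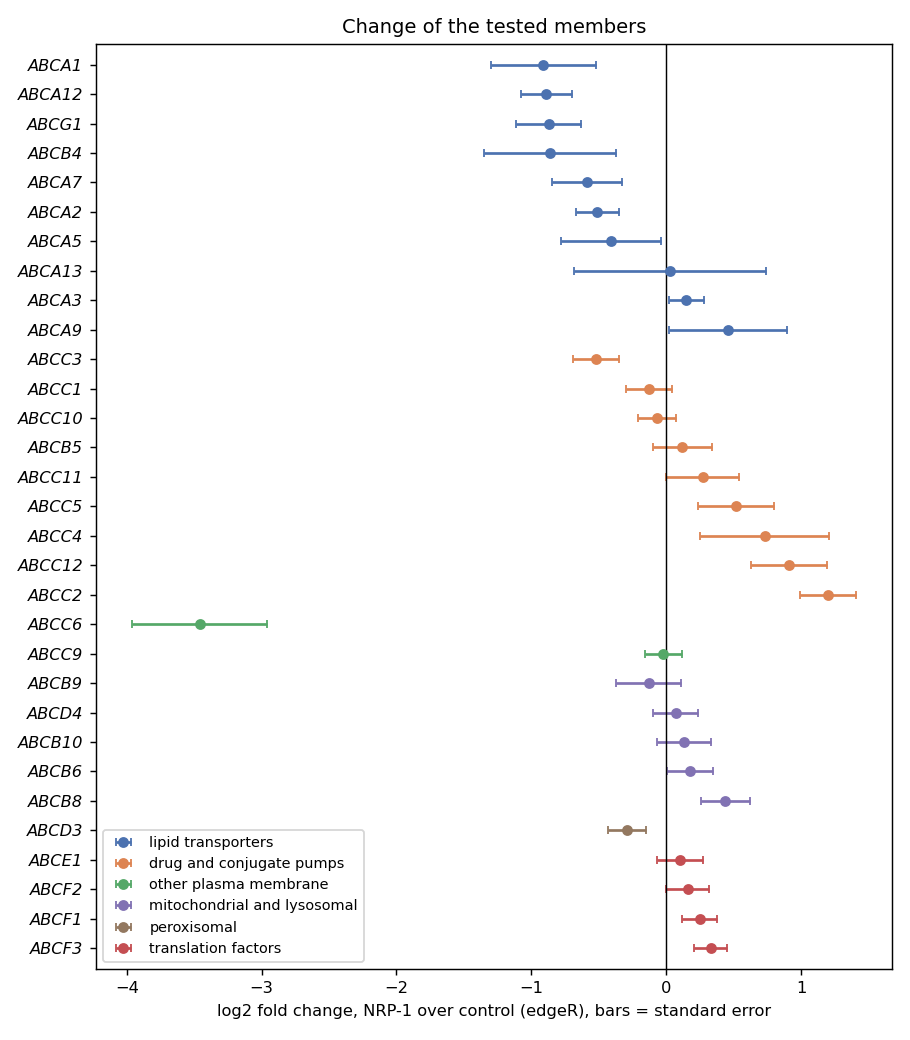
Log2 fold change of NRP-1 over control (x axis) for 31 tested members, coloured by role; bars are standard errors from edgeR. ABCC6 stands at -3.46, the others lie between -0.91 and 1.20, and 7 of the 10 tested lipid transporters lie below 0.

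ABCC6 had by far the largest change of the family. It encodes a transporter of the liver and kidney plasma membrane that serves the release of ATP from cells, and its loss causes pseudoxanthoma elasticum. It had 34.8 and 31 reads in the controls, against 2 and 4 reads with NRP-1, so both NRP-1 libraries lay far below both controls. This was 4.04 ± 0.382 CPM (SD, n = 2) against 0.352 ± 0.166 CPM (SD, n = 2). The NRP-1 counts lie near the limit of 3 reads that is used below for ABCB1 and ABCG2, so the size of the change is uncertain. As estimated, ABCC6 fell by 3.46 on the log2 scale, about 11-fold (standard error 0.50, adjusted p = 0.0476, edgeR). Over the 4 fits that omit a library it ranged from -4.02 to -3.08. The call was lost without control replicate 1 (adjusted p = 0.805) and without control replicate 2 (adjusted p = 0.569), omissions after which edgeR called no gene at all. Without a filter on low counts the log2 fold change was still -3.46 but missed the threshold (adjusted p = 0.113). In limma it was -1.33 with a pseudocount of 1 FPKM (adjusted p = 0.105) and -3.02 with one of 0.1 (adjusted p = 0.128). DESeq2 kept the call at -3.52 (adjusted p = 0.0043).

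For ABCC6 the files list 2 RefSeq transcripts, NM_001079528 and NM_001171, and its FPKM values depend on the mean transcript length estimated in each library. The mean transcript length given for ABCC6 was 1853 and 2227 bases in the control libraries, 5125 bases in NRP-1 replicate 2 and 1430 bases in NRP-1 replicate 3. The 2 NRP-1 libraries, with 2 and 4 reads, thus hold the highest and the lowest mean length. The FPKM values were 2.28 and 1.68 in control cells against 0.05 and 0.33, so the NRP-1 libraries differ more from each other in FPKM than in reads. No other member had a mean length that differed by more than 1.14 times between libraries.

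Reads of ABCC6 can also be shared with its pseudogenes. In the GENCODE transcripts, 19.1% of the stretches of 50 bases in ABCC6 also occur in another gene, and 17.3% occur in ABCC6P1. By transcript, the shared part was 78.0% of 665 stretches in the GENCODE sequence matched to NM_001079528, the shorter form. It was 15.1% of 5698 stretches in that matched to NM_001171. Taking 1430 and 5125 bases as the lengths of the forms counted, the control means place 88.6% and 78.4% of transcripts on the shorter form. The numbers of stretches show that the GENCODE sequences differ in length from these forms. The shared parts therefore cannot be carried over to the forms counted. ABCC6P1 had 5.22 and 2 reads in the controls and was not listed with NRP-1, and ABCC6P2 was not listed. Summed with ABCC6P1, ABCC6 had an edgeR log2 fold change of -3.61 and an adjusted p of 0.0448. ABCC1 is the neighbouring family gene of ABCC6 on chromosome 16, and its values of 554 and 543 reads in the controls, against 449 and 594 reads with NRP-1, overlapped.

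The promoters of ABCC6, ABCC2 and ABCA12, the 3 members with the lowest p, are shown as windows of 300 bases around the start of the gene (RefSeq, GRCh38.p14), with each CG dinucleotide in capitals. They lie at chr16:16223445-16223744 (minus strand), chr10:99782390-99782689 (plus strand) and chr2:215138577-215138876 (minus strand).
ABCC6: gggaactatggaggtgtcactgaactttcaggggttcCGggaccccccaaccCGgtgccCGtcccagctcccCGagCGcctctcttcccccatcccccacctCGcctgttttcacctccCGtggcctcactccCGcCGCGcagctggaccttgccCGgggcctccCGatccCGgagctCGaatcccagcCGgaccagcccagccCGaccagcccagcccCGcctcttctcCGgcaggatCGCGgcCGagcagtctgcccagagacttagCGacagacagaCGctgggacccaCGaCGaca
ABCC2: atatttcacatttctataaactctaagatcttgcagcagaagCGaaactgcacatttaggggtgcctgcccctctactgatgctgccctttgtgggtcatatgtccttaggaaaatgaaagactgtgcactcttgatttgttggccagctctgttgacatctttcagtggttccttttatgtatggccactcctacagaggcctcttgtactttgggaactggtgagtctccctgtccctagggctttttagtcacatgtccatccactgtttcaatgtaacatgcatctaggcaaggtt
ABCA12: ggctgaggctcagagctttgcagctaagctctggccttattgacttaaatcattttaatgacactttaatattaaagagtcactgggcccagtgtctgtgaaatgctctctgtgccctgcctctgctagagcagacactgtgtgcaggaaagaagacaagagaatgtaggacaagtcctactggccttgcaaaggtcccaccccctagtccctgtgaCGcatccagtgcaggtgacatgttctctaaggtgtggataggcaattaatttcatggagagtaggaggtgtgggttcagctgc
The ABCC6 window holds 25 CG dinucleotides and those of ABCC2 and ABCA12 hold 1 each, beside a median of 23 over the 32 member promoters in the table and 14 over all 27305. The first window is thus near the members' median and the others are far below it. The 27305 promoters were not filtered by gene type, while all members are protein-coding, so the sets may differ in kind. On either strand, the GC box GGGCGG occurs in 53.1% of the member promoters and 44.6% of all, and CCAAT in 12.5% against 35.7%. TATAAA occurs in 15.6% against 12%, CACGTG in 12.5% against 7.43% and TGACNNNGC in 21.9% against 13.6%. None of the member windows holds an exact match to the consensus direct repeat of liver X receptors, which also bind other forms of it, or to TCACNCCAC, a sterol element. These letters occur in 0.0183% and 1.15% of all promoters. In the windows shown, the only match to any of these motifs is 1 TATAAA in that of ABCC2.

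Among the drug and conjugate pumps, ABCC2 had the largest difference, and it missed the threshold in edgeR. ABCC2 is an exporter of glucuronide and glutathione conjugates in the apical membrane of hepatocytes and also moves anthracyclines. It had 94 and 79 reads in the controls, against 222 and 192 reads with NRP-1, so both NRP-1 libraries lay above both controls. This was 10.6 ± 1.39 CPM (SD, n = 2) against 24.3 ± 2.52 CPM (SD, n = 2), a difference of 1.20 on the log2 scale with a standard error of 0.21 (adjusted p = 0.0587, edgeR). DESeq2 gave it an adjusted p of 0.00509, and over the 4 fits that omit a library the difference ranged from 1.07 to 1.34.

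ABCC12 and ABCC11 are neighbours on chromosome 16, and their values differed in how well the NRP-1 libraries kept together. ABCC12 had 44 and 50 reads in the controls, against 109 and 75 reads with NRP-1, which do not overlap (log2 fold change 0.91, standard error 0.28, adjusted p = 0.142, edgeR). ABCC11, an exporter in apocrine glands that sets earwax type, had 575 and 778 reads against 1064 and 639. Here NRP-1 replicate 3 lay between the controls and NRP-1 replicate 2 above them (log2 fold change 0.27, adjusted p = 0.59, edgeR).

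ABCC3, the most abundant pump, lay lower in both NRP-1 libraries, and ABCC5 was high in only 1 of them. ABCC3 had 1603 and 1528 reads in the controls, against 1298 and 974 reads with NRP-1 (log2 fold change -0.52, standard error 0.17, adjusted p = 0.144, edgeR). ABCC5, an exporter of cyclic nucleotides and nucleotide analogues, had 573 and 625 reads in control cells, 1157 reads in NRP-1 replicate 2 and 631 reads in NRP-1 replicate 3. The difference was 0.52 on the log2 scale with a standard error of 0.28 (adjusted p = 0.328, edgeR). Omitting NRP-1 replicate 3 gave 0.89, and omitting NRP-1 replicate 2 gave 0.00.

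For the other pumps the differences were within or near the spread of the libraries. ABCC1, which exports glutathione conjugates, anthracyclines and vinca alkaloids, gave -0.13 as log2 fold change (standard error 0.17, adjusted p = 0.682, edgeR), with NRP-1 replicate 2 below and NRP-1 replicate 3 above both controls. ABCC10 had 390 and 401 reads in the controls, against 423 and 363 reads with NRP-1, and ABCB5, a pump described in melanoma cells, had 69.4 and 76.4 against 81.6 and 81.8. ABCC4, an exporter of cyclic nucleotides, had few reads, with 11 and 8 against 20 and 13 (log2 fold change 0.73, standard error 0.48, adjusted p = 0.412, edgeR).

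ABCB1 and ABCG2 were at or near the limit of detection. ABCB1 had 0 and 3.15 reads in the controls, against 3.33 and 2.33 reads with NRP-1. ABCG2 had 2 and 0 reads against 0 and 2. A count of 0 allows up to 3 reads in a library, which is between 0.355 and 0.364 CPM, and this limit covers counting error only. A lower level or a small difference in the RNA of either pump was therefore not detectable at this depth.

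**Figure D4:**
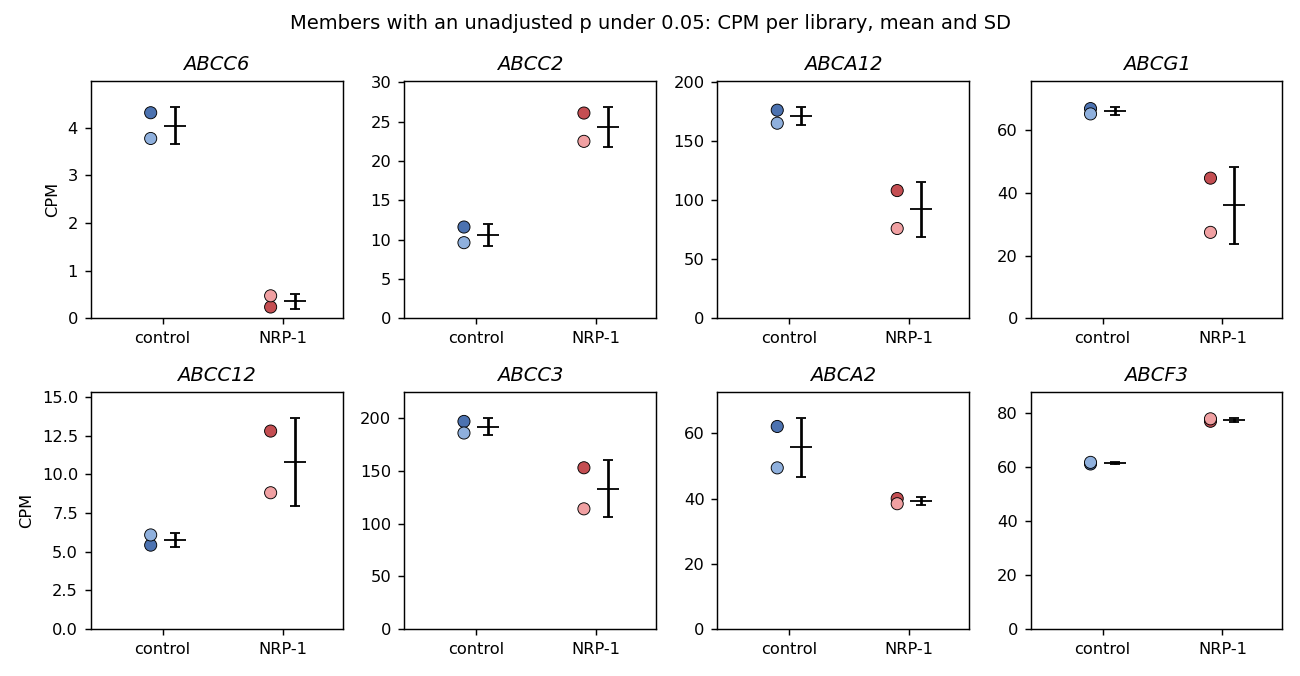
CPM per library (points) with the group mean and SD (bars, n = 2) for the 8 members with an unadjusted p under 0.05, ordered by p; y axes start at 0. In all 8 the NRP-1 points lie on one side of the control points, which choosing members by p favours. Of all genes tested, 56.2% had groups without overlap. The NRP-1 points are farther apart than the control points in all but ABCC6 and ABCA2.

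Of the 10 tested lipid transporters, 7 had a log2 fold change below 0, beside 6897 of all 14298 genes, and 0 passed an adjusted p of 0.05 in edgeR. Without adjustment 3 had a p under 0.05, all with the lower values under NRP-1, beside 12.1% of all genes lower at that p. DESeq2 called 2 of the 10, ABCA12 and ABCG1, beside 6.67% of all genes. The groups did not overlap in 6 members lower and 1 higher, where 28.3% of all genes were lower and 27.9% higher without overlap. The median log2 fold change was -0.55. It stayed at -0.55 when NRP-1 replicate 2 was omitted and was -0.51 when NRP-1 replicate 3 was.

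ABCA12, ABCG1 and ABCA1 showed the same order of libraries. ABCA12, which loads lipids into the lamellar granules of keratinocytes, had 1428 and 1360 reads in the controls, against 922 and 646 reads with NRP-1 (log2 fold change -0.89, standard error 0.19, adjusted p = 0.0755, edgeR). ABCG1, which passes cholesterol to high-density lipoprotein, had 543 and 536 reads against 380 and 233 (log2 fold change -0.87, standard error 0.24, adjusted p = 0.111, edgeR). ABCA1, which passes cholesterol and phospholipid to apolipoprotein A-I, had 107 and 68 reads against 63 and 34 (log2 fold change -0.91, standard error 0.39, adjusted p = 0.237, edgeR). In each of the 3, NRP-1 replicate 3 was the lowest library and NRP-1 replicate 2 the next. DESeq2 gave ABCA12 an adjusted p of 0.00377 and ABCG1 one of 0.0328. Without NRP-1 replicate 3 the log2 fold changes were -0.66, -0.56 and -0.53, and without NRP-1 replicate 2 they were -1.18, -1.28 and -1.43. Without control replicate 1, that of ABCA1 was -0.54.

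ABCA2, a lipid transporter of endosomes and lysosomes, had 504 and 406 reads in the controls, against 340 and 327 reads with NRP-1 (log2 fold change -0.51, standard error 0.16, adjusted p = 0.146, edgeR). ABCA7, a phospholipid transporter linked to Alzheimer disease, had 334 and 264 reads against 159 and 254. Here the order of the NRP-1 libraries was the opposite, with NRP-1 replicate 2 lowest. ABCA3, the surfactant lipid transporter of the lung, had 529 and 522 reads against 654 and 565 (log2 fold change 0.15, adjusted p = 0.538, edgeR). The remaining tested lipid transporters, ABCA5, ABCA9, ABCA13 and ABCB4, had at most 51.0 reads in any library and adjusted p-values from 0.348 to 0.984 in edgeR.

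Of the 6 tested members of mitochondria and lysosomes, 5 had a log2 fold change above 0, beside 7401 of all 14298 genes. This became 3 when control replicate 1 was omitted and 4 when NRP-1 replicate 3 was. It stayed at 5 when control replicate 2 or NRP-1 replicate 2 was omitted. Among these 6, edgeR and DESeq2 called 0. At an unadjusted p under 0.05 in edgeR there were also 0, beside 22.9% of all genes. ABCB8, a transporter of the mitochondrial inner membrane, had the largest difference, with 522 and 525 reads in the controls, against 620 and 855 reads with NRP-1 (log2 fold change 0.44, standard error 0.18, adjusted p = 0.221, edgeR). Omitting NRP-1 replicate 3 gave 0.19, and omitting NRP-1 replicate 2 gave 0.64. ABCB6, ABCB9, ABCB10 and ABCD4 had absolute log2 fold changes between 0.07 and 0.18. ABCD3, a peroxisomal fatty acid transporter, lay lower without overlap in CPM. It had 525 and 568 reads against 505 and 426 (log2 fold change -0.29, adjusted p = 0.292, edgeR). ABCC9, the sulfonylurea receptor subunit of cardiac and smooth muscle potassium channels, was expressed at 12.8 and 11.9 FPKM in the controls, against 13.6 and 11.4 FPKM with NRP-1, and its log2 fold change was -0.02 (standard error 0.14).

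All 4 translation factors had log2 fold changes above 0, none past the threshold in edgeR or DESeq2 and 1 with an unadjusted p under 0.05. Of all 14298 genes tested, 7401 lay above 0, and 10.8% were higher at that unadjusted p in edgeR. The translation factor at that p was ABCF3, with 495 and 506 reads in the controls, against 653 and 662 reads with NRP-1 (log2 fold change 0.33, standard error 0.12, adjusted p = 0.175, edgeR). Its level was 61.3 ± 0.416 CPM (SD, n = 2) against 77.3 ± 0.673 CPM (SD, n = 2). ABCF1 had 1084 and 1109 reads against 1246 and 1474 (log2 fold change 0.25, adjusted p = 0.316, edgeR). ABCE1, which splits ribosomes after termination, had 910 and 790 reads against 832 and 1067, and ABCF2 had 600 and 635 against 633 and 806. For both, NRP-1 replicate 3 alone lay above the controls. The median of the 4 was 0.21. Omitting NRP-1 replicate 2 gave 0.32, and omitting NRP-1 replicate 3 gave 0.05, with 2 of the 4 then below 0.

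The 9 members with too few reads to be tested had at most 21 reads in any library. ABCA4, the retinoid transporter of photoreceptors, had 21 reads in NRP-1 replicate 2 and between 1 and 3 in the other libraries. ABCB11, the bile salt export pump of hepatocytes, had 12 reads in NRP-1 replicate 2 and 2 in NRP-1 replicate 3, against 1 and 0 in control cells. In both genes NRP-1 replicate 2 stood apart, and no fold change is given. ABCA10 had between 3.06 and 12.1 reads and ABCC8, the sulfonylurea receptor of pancreatic beta cells, between 1 and 12. ABCA8, ABCG2, ABCG4 and ABCG5 had at most 3 reads in each library.

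The NRP-1 libraries did not place all members on the same side of the controls. Against the mean of the control libraries, in log2(CPM + 0.5), both NRP-1 libraries lay on the same side for 23 of the 33 tested members and on opposite sides for 10. This was not counted over all genes, so it has no background here. Some of the 10 lay close to the control mean in a library, as did ABCA13 (-0.01) and ABCF2 (-0.02) in NRP-1 replicate 2 and ABCD4 (-0.03) in NRP-1 replicate 3. The difference between NRP-1 replicate 3 and NRP-1 replicate 2 was -0.87 for ABCC5, -0.81 for ABCA1, -0.73 for ABCC11 and -0.70 for ABCG1, and it was 0.66 for ABCA7 and 0.46 for ABCB8. For ABCC2 it was -0.21 and for ABCF3 0.02, so these were among the members on which the NRP-1 libraries came closest together relative to their distance from the controls.

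**Figure D5:**
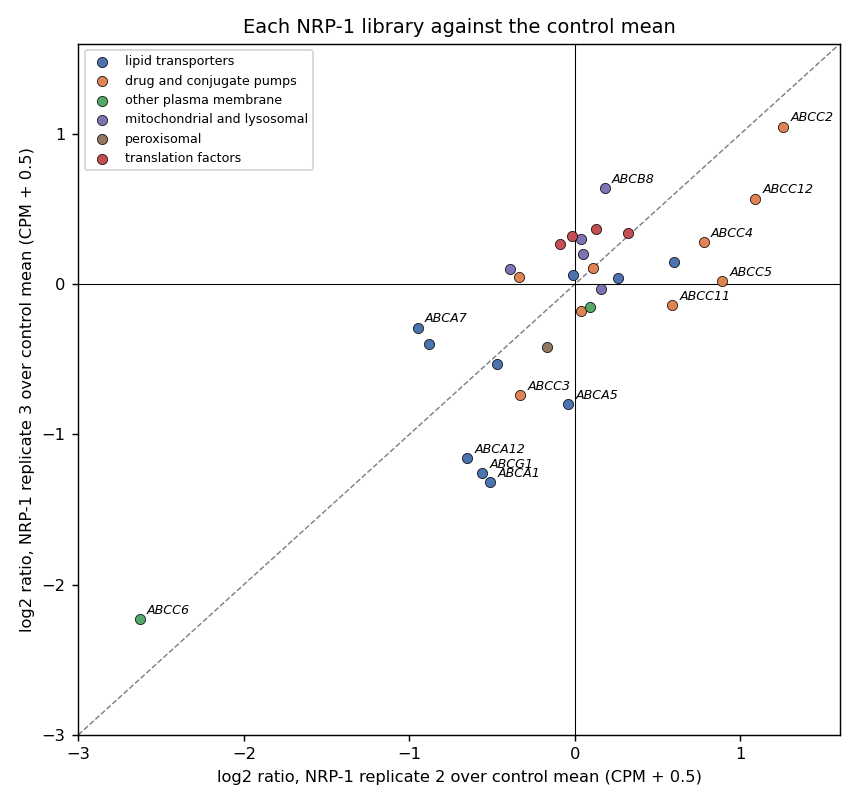
Log2 ratio to the control mean, on the log2(CPM + 0.5) scale, in NRP-1 replicate 2 (x axis) and NRP-1 replicate 3 (y axis) for 31 tested members, coloured by role; the dashed line marks equal ratios. ABCC6 and ABCC2 lie at the ends near the line, ABCC5 and ABCC11 differ in NRP-1 replicate 2 alone, and ABCA1, ABCG1 and ABCA12 lie below the line.

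Members differ in how far their reads can be told from those of other genes. In the GENCODE transcripts, 89.6% of the stretches of 50 bases in ABCB6 also occur in AC068946.2, 49.1% of those in ABCF2 in AC021097.2 and 23.3% of those in ABCB9 in AC026362.1. In ABCE1 25.3% are shared with other genes. The expected counts of ABCB6, ABCB9 and ABCE1 were whole in every library, so no division of reads with other genes shows in them. The counting used RefSeq transcripts, and whether its reference held the GENCODE genes named here is not known. A gene absent from it would also leave the counts whole, so whole counts cannot show that reads were unshared. Those of ABCF2 were not, with 599.64 and 635.08 in the controls against 632.83 and 805.58 with NRP-1. For ABCF2 some reads may be split between genes, and the counting is not stated to use strand. ABCC2, ABCC1, ABCC3, ABCC5, ABCC12, ABCG1, ABCG2, ABCA1, ABCA2 and ABCF3 share none, and for ABCA12 the share is 0.0961%.

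Genes that work with the family were read from lists of regulators, partners and other drug-handling proteins. Of 17 tested regulators of ABC genes, among them the liver X receptors and the sterol-regulated factor SREBF2, edgeR called 0, 5 had an unadjusted p under 0.05, and DESeq2 called 4. Over all genes these shares were 1.09%, 22.9% and 6.67%, against which this list and those that follow are to be read. Of 27 tested genes of drug metabolism and drug targets, 1 was called and higher, TUBB3, a tubulin isotype linked to taxane response. It had 1145 and 1293 reads against 2837 and 2847 (log2 fold change 1.16, adjusted p = 0.0365, edgeR).

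In 4 further lists edgeR called 0 genes. These were 15 tested drug uptake carriers (5 with an unadjusted p under 0.05, 2 called by DESeq2), 21 partners of peroxisomal transport (4 and 1), 20 genes of iron-sulfur and heme synthesis (3 and 0) and 13 partners of ribosome recycling (1 and 0). The P-type ATPases are the other large family of ATP-driven membrane pumps, and edgeR called 0 of their 27 tested genes, where 6 had an unadjusted p under 0.05 and DESeq2 called 2. Their median log2 fold change was -0.16, beside 0.07 for the ABC family. Of the ABC proteins that the rule leaves out, the peptide transporters TAP1 and TAP2 gave -0.39 and -0.27 as log2 fold changes, with adjusted p = 0.344 and 0.575 in edgeR, and the chloride channel CFTR had at most 4 reads in a library.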

How the data were processed

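RNA of 4 libraries was sequenced, 2 of control and 2 of NRP-1 cells. The authors mapped clean reads with HISAT/Bowtie2. The submitters' processing notes name bcl2fastq 2.16, Bowtie2 2.2.5, HISAT2 2.0.1 and RSEM, and the builds GRCh38 and hg19 without a stated role. Each deposited library file gives an expected count per gene (not normalized, 32.8% of values not whole), an FPKM value and a mean transcript length. Genes without reads are not listed and were set to 0. A deposited table of the authors' own comparison (group means, log2 ratio and probability) was not used.

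Gene IDs were matched to RefSeq symbols of GRCh38.p14 (99.4% of 18882). The main test was edgeR's quasi-likelihood test on rounded counts (edgeR 4.0.16, R 4.3.3) after TMM scaling and filterByExpr, over 14298 genes with group as the only term and Benjamini-Hochberg adjustment. TMM factors lay between 0.986 and 1.014. The standard error was the absolute log2 fold change divided by the square root of F. Alternatives were DESeq2 1.42.0, limma 3.58.1 on FPKM (mean of 0.5 or more) after log2 with a pseudocount of 1 or 0.1, no TMM, no filter, sums with pseudogene copies and the omission of each library. A fit with 1 library in a group assumes that it varies like the others. The scripts were tested on simulated data with log2 changes of 2 and the same spread in both groups. In the data the biological coefficients of variation were 0.064 (control) and 0.225 (NRP-1), so that test does not measure how well smaller changes are found here. Stretches of 50 bases were compared between GENCODE 29 transcripts on both strands with Python 3.11.15.

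Members and lists were chosen with earlier results of these data known. Values in every library are given for members with a p under 0.05, the 10 highest by mean FPKM, ABCB1, ABCC1, ABCC2, ABCC3, ABCC4, ABCC5 and ABCG2, and members with at least 10 reads in a library and at most 3 in each library of a group. Others are given by range, or by value where a sentence needs one. Some genes are counted in the totals but not reported singly here.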

Additional observations from a re-analysis of the deposited data

How the results depend on the processing

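Where edgeR called 1 member, DESeq2 called 4, and 0 were called without a filter on low counts or by limma with either pseudocount. Of all genes, where edgeR called 156, DESeq2 called 953, limma called 7 with a pseudocount of 1 and 3 with one of 0.1, and 0 were called by edgeR without a filter. Of the regulator, partner and comparison lists, where edgeR called 2, DESeq2 called 15, and 0 were called without a filter or by limma. The cause was not tested. With each library left out, the calls ranged from 0 to 14 members, from 0 to 5402 genes and from 0 to 63 list genes. None were called when a control library was left out. The lone control is then taken to vary like the NRP-1 libraries, and whether this caused the loss was not tested. At the stricter threshold ABCC6 was the only member called in any of these fits, and calls over all genes were not counted there. The members' median log2 fold change ranged from -0.01 to 0.05, and the log2 ratio of the summed FPKM, 0.03 in all 4 libraries, from -0.01 to 0.08. It was -0.06 with CPM in place of FPKM. ABCC9 changed sign, to 0.01, without TMM and in limma with either pseudocount. Over the 31 members reported singly, 178 comparisons with an alternative other than omission were made, of which 169 kept their sign and their call, 3 were weaker (ABCC6), 3 stronger (ABCC2, ABCA12 and ABCG1 in DESeq2) and 3 changed sign. With each library left out, 22 of these members kept their sign in all 4 fits and 9 did not. Their log2 fold changes ranged from -0.70 to 1.63 for ABCA13, -0.40 to 0.09 for ABCB9, -0.35 to 0.04 for ABCC1, -0.20 to 0.04 for ABCC10, -0.15 to 0.60 for ABCC11, -0.17 to 0.09 for ABCC9, -0.05 to 0.20 for ABCD4, -0.09 to 0.26 for ABCE1 and -0.02 to 0.31 for ABCF2. No paired analysis was possible because the groups' replicate numbers share only number 2. Depth limits ABCB1, ABCG2 and the other 7 untested members.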
